A study of Mus musculus with 6 samples.

Results

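The genes of fatty acid oxidation and ketone body synthesis were compared in mouse liver between samples labelled wild-type (WT) and Sec15 knockout (KO). The group is a fixed list of 41 mouse genes: Ppara, and genes for fatty acid uptake and activation, the carnitine shuttle, mitochondrial and peroxisomal beta-oxidation, electron transfer from the oxidation cycle, acyl-CoA hydrolysis and ketone bodies, with Pdk4 and Vnn1 added. Its genes were found through the transcript accession of each probe, and 53 probes named one of them. Of the 41 genes, 40 had a measurable probe, one well above background on no fewer than 3 arrays out of 6, among 22809 genes tested in all, 15543 of them with a symbol. The remaining gene, Acot2, is described with the thioesterases.

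The study's subject is Sec15, a subunit of the exocyst complex that tethers secretory vesicles, and its place in the traffic of STAT3 in blood stem cells. The arrays held here carry total RNA of whole liver. Both groups were male mice, 6 weeks old and left without treatment: 3 samples are labelled WT and 3 Sec15 KO, and each filled 1 one-colour (Cy3) Agilent oligonucleotide array. The labels name no strain, do not say whether the deletion was in every cell or in 1 tissue, and do not state whether the samples are separate animals. The p-values therefore rest on the spread among samples, part of which may be technical. Nor do they say which Sec15 gene, Exoc6 or Exoc6b, was deleted.

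Fatty acids that reach a hepatocyte are bound by carrier proteins and joined to coenzyme A. Long chains enter mitochondria through the carnitine shuttle and are shortened there by repeated rounds of dehydrogenation, hydration, oxidation and cleavage. Very long and unusual chains are first shortened in peroxisomes. In fasting liver the resulting acetyl-CoA is condensed to ketone bodies for export, and the nuclear receptor PPARa, encoded by Ppara, is the best known transcriptional activator of these enzymes.

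Scan times in the file headers placed the 3 WT arrays and KO replicate 2 together, here called slide 1, and KO replicates 1 and 3 together, slide 2. An effect of slide and one of scan time cannot be told apart, and slide 2 held no WT array. WT replicates 1 and 2 carry the same number in their deposited names and may come from 1 animal. Probes well above background made up 67.3% to 70.3% of the probes on WT arrays and 64.8% to 65.4% on KO arrays. The Exoc6 probe exceeded background on 1 array, a WT one, and 1 of the 2 Exoc6b probes on none, so neither tells of the genotype. The other Exoc6b probe fell by 0.53 on the log2 scale in KO (SE 0.15, limma adjusted p = 0.0437 over all probes). It checks nothing if it lies outside the deleted part. All 9 measured hepatocyte markers were above background on every array, and Adipoq, Lep, Cidea, Acta1, Myh1, Actn3 and Mb, of fat and striated muscle, on none. From the same lists, however, Lipe of fat and Mylpf, Tnnt3 and Tnni2 of muscle were above background on every array. Summed linear signals, in units of the array's 75th percentile, were 2632 to 2931 in WT and 3028 to 3524 in KO for the hepatocyte markers, 3 of which were called higher. The sums were 34.1 to 48.3 in WT and 164 to 233 in KO for the 9 erythroid markers on the array. They were 9.91 to 11.2 and 11.3 to 11.8 for 10 pancreas markers. Of 8 measured erythroid markers 5 were called higher, and of 6 measured pancreas markers 4 were called lower and 1 higher. Of 4 measured adipocyte markers 2 and of 4 muscle markers 1 were called lower. Of all genes tested 17.4% were called higher and 12.2% lower, and of those in the brightest decile 36.4% were called higher. The part of these marker shifts in the results below was not tested.

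All levels below are log2 processed signals relative to the array's 75th percentile, and differences are KO minus WT on that scale. A gene is said to have risen or fallen where the Benjamini-Hochberg adjusted p over all genes tested was under 0.05 in limma. By that rule 25 of the 40 measured genes rose in KO liver, against 17.4% of all genes tested and 36.4% of those in the brightest decile, where 21 of the 40 lay. 1 gene, Hadha, fell, against 12.2% of all genes. The other 14 passed in neither direction, while 29.6% of all genes passed in one or the other. The median difference was 0.60 over the 40 genes and 0.06 over all genes, whose lower and upper quartiles were -0.38 and 0.36. In 29 of the 40 genes the 3 KO levels lay above the 3 WT levels, as they did in 30.6% of all genes, and in 1 they lay below, as in 20.1%. The rises ran from 1.25-fold (Acadvl) to 3.16-fold (Acot3). In bulk tissue, fewer cells of a type and less RNA per cell cannot be told apart.

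**Figure D1:**
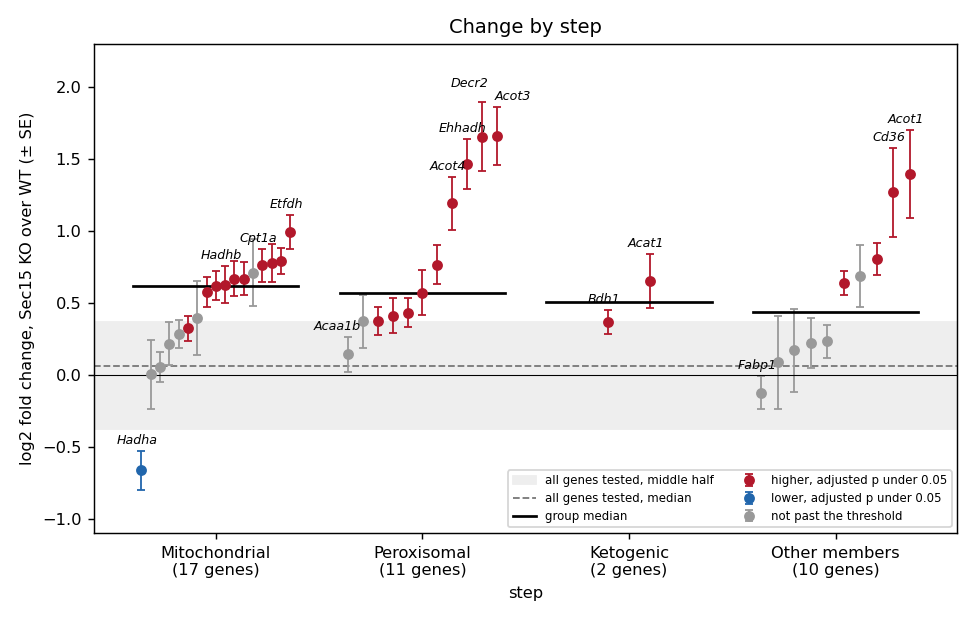
Log2 difference between Sec15 KO and WT for each of the 40 measured genes (point, with its SE), grouped by step along the x axis, with the median of each group (black bar) and the median and quartiles of all genes tested (dashed line and band). The medians of the mitochondrial (0.62), peroxisomal (0.57) and ketogenic genes (0.51) lie above the band's upper edge at 0.36, and Hadha is the one point that fell.

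The 3 steps had similar medians, and their differences were not tested because genes are not replicates of a condition. Of 17 mitochondrial genes 10 rose and 1 fell, with a median of 0.62. Of 11 peroxisomal genes 9 rose, with a median of 0.57 and a widest difference of 1.66, that of Acot3. These genes include Crot of the carnitine shuttle and the thioesterases Acot3, Acot4 and Acot8, which are described again with their roles. Eci2, of both compartments, was counted as peroxisomal, while Crat, also of both, was counted in neither step. Both ketogenic genes, Acat1 and Bdh1, rose, with a median of 0.51. When the slide was a block, which sets KO replicate 2 alone against WT, the peroxisomal median was 0.74, the mitochondrial median 0.44 and the ketogenic median 0.30. On slide 2 the order was another: 0.67 for mitochondrial, 0.62 for ketogenic and 0.56 for peroxisomal genes. The peroxisomal genes thus came first on slide 1 and last on slide 2.

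Many calls rested on single arrays. Without WT replicate 3 only 2 of the 40 genes were called higher, Ehhadh and Acot3, against 1.49% of all genes. Without KO replicate 3 the count was 4, against 2.08% of all genes. In either case 24 of the 25 genes still had an unadjusted p under 0.05 in limma. Their choice on these same arrays largely fixes that count. The count was 14 without WT replicate 2, 15 without KO replicate 1, 19 without WT replicate 1 and 26 without KO replicate 2.

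Ppara itself did not pass the test on its brightest probe. Its WT levels were 4.30, 3.45 and 3.91, and its KO levels were 4.52, 4.60 and 4.60. The KO levels lay close together above all WT levels, which were spread widely. The difference was 0.69 (SE 0.22, limma adjusted p = 0.0591), and it passed with median centring, with a filter on all 6 arrays, with the trend and robust setting of limma, with WT replicates 1 and 2 averaged and without WT replicate 1. It was smaller and did not pass with quantile (0.44, adjusted p = 0.203), normexp (0.40, adjusted p = 0.179) and cyclic loess normalisation (0.40, adjusted p = 0.211), and it was 0.23 with the mean of its probes (adjusted p = 0.1). The Ppara difference did not pass in 13 of the 18 alternative settings. Among these were no filter (limma adjusted p = 0.0912) and the replicate number as a block (adjusted p = 0.088). Blocked on the slide, which sets KO replicate 2 alone against WT, it was 0.71. The other 2 Ppara probes, for the same transcript, differed by -0.11 (SE 0.12) and 0.10 (SE 0.21).

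Among the 4 genes of uptake and activation, Cd36 and Slc27a2 rose. Cd36 encodes a fatty acid receptor and transporter of the plasma membrane. Its WT levels were -0.56, -0.42 and -0.47, and its KO levels were 1.33 (replicate 1), 0.10 (replicate 2) and 0.92 (replicate 3). The KO levels all lay above WT but were spread far more, with replicate 2 the lowest. Cd36 was 2.41-fold higher (difference 1.27, SE 0.31, limma adjusted p = 0.0301). Blocked on the slide it differed by 0.59 (adjusted p = 0.0976), and its call ended without any 1 of 5 arrays, all but KO replicate 2 (limma adjusted p between 0.0665 and 0.106). Macrophages and endothelial cells also make CD36. Of 10 measured Kupffer cell markers 3 were called higher in KO, with a summed linear signal of 35.7 to 35.9 in WT and 46.9 to 61.5 in KO. Of 8 endothelial markers 3 were called higher, with summed signals of 21.6 to 22.3 and 26.3 to 35.4. Of all genes tested 17.4% were called higher, with 22.1% in decile 7 of brightness and 36.4% in decile 10, the brightest. The marker counts are not far from these shares. All 18 markers were above background on every array, and their part in the Cd36 result was not tested.

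Slc27a2, which encodes a very long chain acyl-CoA synthetase and fatty acid transporter, read 6.95, 6.92 and 6.96 in WT and 7.56, 7.56 and 7.62 in KO. Both groups were tight and well apart. It was 1.55-fold higher (difference 0.64, SE 0.08, limma adjusted p = 0.00819), with nearly the same difference on slide 1 (0.62, adjusted p = 0.034). Acsl1, the main long-chain acyl-CoA synthetase of liver, differed by 0.23 (SE 0.12, adjusted p = 0.165) and Fabp1, the liver fatty acid binding protein, by -0.12 (SE 0.12, adjusted p = 0.439). Neither passed. Fabp1 fell after cyclic loess normalisation (-0.35, adjusted p = 0.0337).

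**Figure D2:**
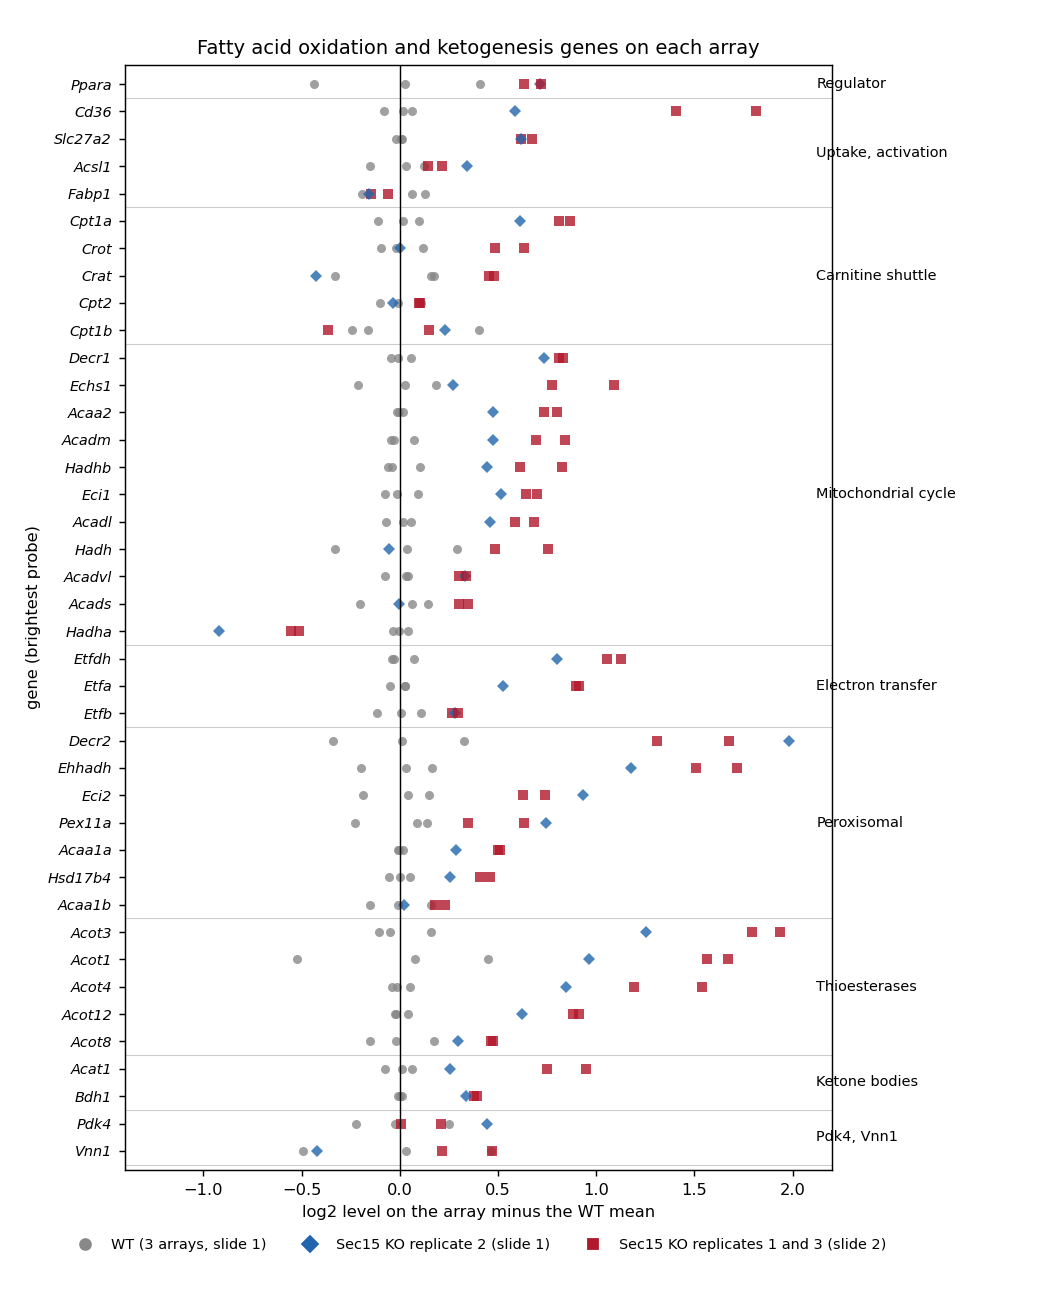
Level of each measured gene on each array minus its WT mean, on the log2 scale (x axis), with genes on the y axis grouped by role: WT arrays as grey circles, KO replicate 2 (slide 1) as blue diamonds, KO replicates 1 and 3 (slide 2) as red squares. For most genes of beta-oxidation, electron transfer and acyl-CoA hydrolysis all KO points lie to the right of the WT points, while in the carnitine shuttle only Cpt1a does, and the KO points of Hadha lie to the left.

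Of the 5 genes of the carnitine shuttle, which had a median of 0.17, 1 rose. This was Cpt1a, the liver carnitine palmitoyltransferase of the outer mitochondrial membrane and the step at which malonyl-CoA restrains the pathway. Cpt1a read 1.98, 2.18 and 2.10 in WT and 2.96, 2.70 and 2.90 in KO. The groups did not overlap, and it was 1.70-fold higher (difference 0.76, SE 0.11, limma adjusted p = 0.0105). Blocking on the slide gave an adjusted p of 0.0489. Cpt2, the inner membrane enzyme of the shuttle, differed by 0.05 (SE 0.10), Cpt1b, the muscle form, by less than 0.01 (SE 0.24) and Crat, carnitine acetyltransferase, by 0.17 (SE 0.29). Their limma adjusted p-values were 0.696, 0.989 and 0.666, and in each the groups overlapped. Cpt1b and Crat were dim, in decile 2 of all genes tested by brightness, so their probes say little about a change. Crat was above background on 2 of 3 arrays in each group. Crot, the peroxisomal carnitine octanoyltransferase, read 5.14, 4.93 and 5.01 in WT and 5.66, 5.03 and 5.51 in KO. Its KO replicates 1 and 3 lay above WT and replicate 2 within WT, for a difference of 0.37 (SE 0.18, adjusted p = 0.163).

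Of the 11 genes of the mitochondrial cycle 7 rose, by 1.25-fold to 1.73-fold, 1 fell and 3 did not pass. The acyl-CoA dehydrogenases start each round, and 3 of 4 rose. Acadl, for long chains, rose by 0.58 (SE 0.10, limma adjusted p = 0.0145), Acadm, for medium chains, by 0.67 (SE 0.12, adjusted p = 0.0156) and Acadvl, for very long chains, by 0.32 (SE 0.09, adjusted p = 0.0399). Acads, for short chains, differed by 0.22 (SE 0.15, adjusted p = 0.291). Acadm read 3.40, 3.30 and 3.28 in WT and 4.17, 3.80 and 4.02 in KO, so that KO replicate 2 was the lowest KO array and still above WT. Acadvl kept its direction but differed by only 0.01 after quantile normalisation and 0.05 after cyclic loess normalisation.

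Acaa2, the thiolase that closes the round for medium chains, read 6.31, 6.34 and 6.32 in WT and 7.13, 6.80 and 7.06 in KO. The groups were far apart for the narrow WT spread, and it was 1.59-fold higher (difference 0.67, SE 0.12, limma adjusted p = 0.0139). Decr1 and Eci1 are auxiliary enzymes that fit unsaturated chains into the cycle, a reductase and an isomerase. Decr1 was 1.73-fold higher (difference 0.79, SE 0.09, adjusted p = 0.00668) and Eci1 1.54-fold (difference 0.62, SE 0.10, adjusted p = 0.0123). Echs1, the short-chain enoyl-CoA hydratase, differed by 0.71 (SE 0.23, adjusted p = 0.064) and Hadh, the medium and short-chain 3-hydroxyacyl-CoA dehydrogenase, by 0.39 (SE 0.26, adjusted p = 0.27). In Echs1 the KO levels were 4.37, 3.55 and 4.05 and all lay above WT, with KO replicate 2 nearest to it. Blocking on the slide left only Decr1 of the 7 genes that rose called (adjusted p = 0.0294), and the others had adjusted p-values between 0.0514 and 0.104.

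Hadha and Hadhb encode the alpha and beta subunits of the mitochondrial trifunctional protein, the membrane complex that carries out the last 3 reactions on long chains, and their probes moved in opposite directions. Hadhb read 3.74, 3.90 and 3.76 in WT and 4.63, 4.24 and 4.41 in KO, and was 1.54-fold higher (difference 0.63, SE 0.13, limma adjusted p = 0.0203). Hadha read -1.24, -1.17 and -1.21 in WT and -1.72, -2.13 and -1.76 in KO, and was 1.58-fold lower (difference -0.66, SE 0.14, limma adjusted p = 0.0199). In neither gene did the groups overlap, and KO replicate 2 was the lowest KO array in both. Blocked on the slide, Hadha differed by -0.92 (adjusted p = 0.0243) and Hadhb by 0.44 (adjusted p = 0.0989). The Hadha call ended with median centring (-0.54, adjusted p = 0.06) and with quantile normalisation (-0.58, adjusted p = 0.0538). It also ended when WT replicate 2, WT replicate 3 or KO replicate 3 was left out, at adjusted p-values of 0.0682 to 0.0876. The Hadhb call ended in 8 of the 18 settings, among them quantile normalisation (0.38, adjusted p = 0.0601) and cyclic loess normalisation (0.34, adjusted p = 0.0862). It also ended when WT replicate 2, WT replicate 3, KO replicate 1 or KO replicate 3 was left out, at adjusted p-values of 0.054 to 0.0933. Each gene has 1 probe here, so no second probe checks either direction. The Hadha probe was dim, in decile 4 of all genes tested by brightness. In that decile the median difference was -0.09 and 14.5% of genes were called lower. The Hadhb probe was in decile 10, the brightest. How well the dim Hadha probe reports its transcript was not tested.

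The pair is shown by sequence because the genes lie head to head. In RefSeq's GRCm38.p6 annotation their start sites are 273 bases apart on chromosome 5 and they are read away from each other. The window from 250 bases before to 50 after the Hadhb start, on the plus strand at chr5:30155003-30155302, shares 228 bases with the same window of Hadha on the minus strand. Capitals mark the shared bases.
Hadhb window: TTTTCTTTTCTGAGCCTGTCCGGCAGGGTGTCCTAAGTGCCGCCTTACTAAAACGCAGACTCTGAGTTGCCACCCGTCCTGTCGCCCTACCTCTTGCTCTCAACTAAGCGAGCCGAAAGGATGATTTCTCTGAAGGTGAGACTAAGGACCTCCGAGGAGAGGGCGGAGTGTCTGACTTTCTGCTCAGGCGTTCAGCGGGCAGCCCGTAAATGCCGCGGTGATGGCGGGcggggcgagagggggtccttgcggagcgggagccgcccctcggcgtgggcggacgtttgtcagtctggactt

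Electron transfer flavoprotein takes the electrons of the acyl-CoA dehydrogenases to the respiratory chain. Etfdh, its membrane-bound dehydrogenase, read 4.43, 4.32 and 4.34 in WT and 5.49, 5.16 and 5.42 in KO. It showed the highest difference of the 17 mitochondrial genes, 0.99 (SE 0.12, 1.99-fold, limma adjusted p = 0.00723), and was 0.80 higher when blocked on the slide (adjusted p = 0.0289). Etfa, the alpha subunit, read 4.69, 4.61 and 4.69 in WT and 5.58, 5.19 and 5.56 in KO, and was 1.71-fold higher (difference 0.78, SE 0.13, adjusted p = 0.0137). For both genes the groups lay apart and KO replicate 2 was the lowest KO array. Etfb, the beta subunit, read 6.46, 6.68 and 6.58 in WT and 6.84, 6.86 and 6.87 in KO. Its groups did not overlap either, but the difference of 0.28 (SE 0.10, adjusted p = 0.0721) did not pass.

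Of 7 genes of peroxisomal beta-oxidation and peroxisome division 6 rose. Ehhadh, the bifunctional enzyme that hydrates and dehydrogenates in the peroxisome, read 2.22, 2.58 and 2.45 in WT and 4.13, 3.59 and 3.93 in KO. All KO levels were more than 1 log2 unit above the highest WT level. Ehhadh was 2.76-fold higher (difference 1.47, SE 0.17, limma adjusted p = 0.00723), and Ehhadh and Acot3 were the only genes of the 25 called in each of the 18 alternative settings. Decr2, the peroxisomal dienoyl-CoA reductase, read 1.43, 0.77 and 1.12 in WT and 2.42, 3.09 and 2.78 in KO. It was 3.15-fold higher (difference 1.66, SE 0.24, adjusted p = 0.00989), and here the highest KO level was that of replicate 2, which shares its scan time with the WT arrays.

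Eci2, an enoyl-CoA isomerase of peroxisomes and mitochondria, was 1.70-fold higher (difference 0.77, SE 0.14, limma adjusted p = 0.0148). Its call ended with quantile normalisation (0.46, adjusted p = 0.0656), with cyclic loess normalisation (0.49, adjusted p = 0.0657), and when WT replicate 3 (adjusted p = 0.0703) or KO replicate 3 (adjusted p = 0.066) was left out. Pex11a, a membrane protein of peroxisome division, was 1.49-fold higher (difference 0.57, SE 0.16, adjusted p = 0.0416). Like Decr2, these genes had their highest KO level in replicate 2, and Pex11a lost its call without any 1 of the 6 arrays (adjusted p between 0.0529 and 0.138). Hsd17b4, the other bifunctional enzyme, and Acaa1a, a thiolase, rose by 0.37 (SE 0.10, adjusted p = 0.0378) and 0.43 (SE 0.10, adjusted p = 0.0272), but after normexp correction with quantile normalisation the difference of Acaa1a was 0.02 and that of Hsd17b4 was under 0.01. Pex11a, Hsd17b4 and Acaa1a did not pass when the slide was a block (adjusted p between 0.0764 and 0.163). Acaa1b, a near copy of Acaa1a, differed by 0.14 (SE 0.12, adjusted p = 0.387), and the probes of such copies may share signal.

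The acyl-CoA thioesterases, which release free fatty acid from coenzyme A, had the highest median of the roles, 1.19, and all 5 measured genes rose. Acot3, of peroxisomes, read -0.20, 0.06 and -0.15 in WT and 1.84, 1.15 and 1.69 in KO, and was 3.16-fold higher (difference 1.66, SE 0.20, limma adjusted p = 0.00732). Acot1, of the cytosol, read 1.83, 2.80 and 2.43 in WT and 4.02, 3.32 and 3.92 in KO, and was 2.63-fold higher (difference 1.40, SE 0.30, adjusted p = 0.0233). Acot4, of peroxisomes, read -0.64, -0.73 and -0.70 in WT and 0.84, 0.16 and 0.50 in KO, and was 2.28-fold higher (difference 1.19, SE 0.18, adjusted p = 0.011). In these 3 genes the groups did not overlap and KO replicate 2 was the lowest KO array. Blocked on the slide the differences were 1.25, 0.96 and 0.85, and that of Acot1 did not pass (adjusted p = 0.145).

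Acot12, a cytosolic acetyl-CoA hydrolase, rose by 0.81 (SE 0.11, limma adjusted p = 0.00942) and Acot8, of peroxisomes, by 0.41 (SE 0.12, adjusted p = 0.0493). Acot8 lost its call in 13 of the 18 alternative settings, such as testing every probe on its own (adjusted p = 0.0509). Acot2, the mitochondrial form, was above background on no array. Its probe read -6.18, -6.02 and -6.25 in WT and -4.42, -5.78 and -4.83 in KO, which gives no fold. Acot1, Acot2, Acot3 and Acot4 are near copies that lie beside each other on chromosome 12, so their probes may share signal. Their 300-base start windows were 47.9% to 52.0% identical to each other in alignment, so the likeness of the genes did not extend to these windows.

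Of the 41 genes 34 had a start window in RefSeq's table, and these were searched on both strands for direct repeat 1, the element that PPARa binds together with its partner RXR. The exact element, AGGTCA repeated with any 1 base between the copies, was in 13 of 27025 windows of all genes (0.0481%) and in none of the 34. With 1 free base in each copy, AGGNCA, it was in 122 windows of all genes (0.451%) and in 1 of the 34, that of Fabp1, 67 bases before the start. A looser form, tried after these results, also frees the first base of the first copy (NGGNCA), and so takes in every match of the stricter forms. It was in 251 windows (0.929%) and in 2 of the 34, those of Fabp1 and Acot4. These matches are descriptions and not binding sites, and a missing match says only that the letters are not in the window. The windows of Fabp1, which did not pass the test, and Acot4, which rose, are shown as the 2 that hold a match, on the plus strand at chr6:71199629-71199928 and chr12:84038129-84038428 of GRCm38.p6. Capitals mark the match, which lies on the opposite strand in both.
Fabp1 window: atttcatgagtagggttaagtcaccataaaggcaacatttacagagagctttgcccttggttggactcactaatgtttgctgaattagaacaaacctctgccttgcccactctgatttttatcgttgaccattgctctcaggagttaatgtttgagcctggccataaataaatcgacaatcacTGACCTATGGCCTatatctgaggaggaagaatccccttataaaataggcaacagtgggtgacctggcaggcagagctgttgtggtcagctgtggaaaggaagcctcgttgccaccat
Acot4 window: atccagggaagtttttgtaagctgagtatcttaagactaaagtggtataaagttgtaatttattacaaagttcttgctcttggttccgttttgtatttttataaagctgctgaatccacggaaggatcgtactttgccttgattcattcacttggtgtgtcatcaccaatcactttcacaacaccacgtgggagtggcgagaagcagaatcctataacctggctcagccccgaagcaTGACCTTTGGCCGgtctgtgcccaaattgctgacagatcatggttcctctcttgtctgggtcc

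Both genes of ketone body synthesis rose. Acat1, the mitochondrial thiolase that makes acetoacetyl-CoA, read 2.52, 2.66 and 2.61 in WT and 3.54, 2.85 and 3.35 in KO, and was 1.57-fold higher (difference 0.65, SE 0.19, limma adjusted p = 0.0479). Bdh1, which reduces acetoacetate to 3-hydroxybutyrate, read 3.63, 3.65 and 3.64 in WT and 4.02, 3.98 and 4.04 in KO, and was 1.29-fold higher (difference 0.37, SE 0.08, adjusted p = 0.0248). The groups lay apart in both genes, with a wide KO spread in Acat1 and a narrow one in Bdh1. Quantile and cyclic loess normalisation brought Bdh1 to 0.15 (adjusted p = 0.221) and 0.08 (adjusted p = 0.486), and Acat1 to 0.50 (adjusted p = 0.0637) and 0.39 (adjusted p = 0.138). Neither passed when the slide was a block (0.26 with adjusted p = 0.229, and 0.33 with adjusted p = 0.0835), and Acat1 lost its call without any 1 of 5 arrays, all but KO replicate 2 (adjusted p between 0.103 and 0.152). Bdh1 lost it when WT replicate 2, WT replicate 3, KO replicate 1 or KO replicate 3 was left out, at adjusted p-values of 0.0721 to 0.118.

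Among further genes of ketone handling, Slc16a1, a monocarboxylate transporter, fell by 0.42 (SE 0.12, limma adjusted p = 0.044). Bdh2 differed by -0.30 and Oxct1, the enzyme of ketone use, by 0.30, and neither passed. The remaining genes on the list, Pdk4, a kinase that restrains pyruvate oxidation, and Vnn1, a pantetheinase, differed by 0.22 (SE 0.17, adjusted p = 0.35) and 0.09 (SE 0.32, adjusted p = 0.848), with overlapping groups.

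Genes with several probes gave a check on the values. Of the 50 probes that passed the filter 26 were called higher and 1 lower when every probe was tested, against 17% and 11.6% of all probes. In 8 genes more than 1 probe passed. Both Etfa probes were called higher, at 0.78 and 0.96 (SE 0.21), as were 2 of the 3 Bdh1 probes, at 0.37 and 0.51 (SE 0.10). The second probes of Decr1 and Cpt1a, for the same transcripts as the first, differed by -0.01 (SE 0.12) and 0.09 (SE 0.12), with overlapping groups. These second probes were far dimmer, with WT means of -0.63 against 3.81 for Decr1 and -2.03 against 2.09 for Cpt1a. How well they report their transcripts was not tested. So the calls of Decr1 and Cpt1a rest on their brightest probes. For Acsl1 and Cpt2 the probes had opposite signs, 0.23 and -0.35 for Acsl1 and 0.05 and -0.40 for Cpt2, none of them past the threshold. Acot3's second probe was above background on 2 of 3 KO arrays and no WT array. It did not pass the filter and gives no check. It read -4.48, -5.02 and -4.65 in WT and -2.73, -4.09 and -3.06 in KO, with KO replicate 2 nearest to WT.

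**Figure D3:**
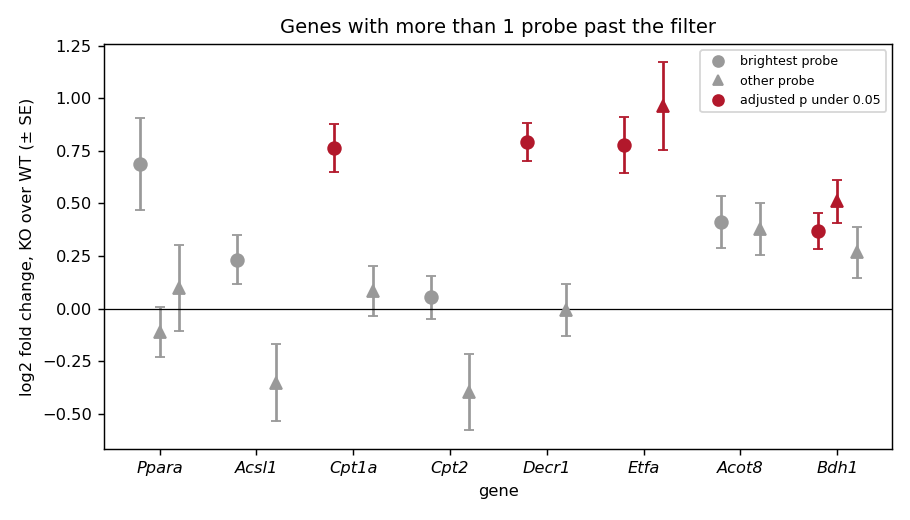
Log2 difference between Sec15 KO and WT with its SE (y axis) for every probe of the 8 genes with more than 1 probe past the filter (x axis), the brightest probe as a circle and the others as triangles, in red where the adjusted p over all probes was under 0.05. The Etfa probes lie together, while the second probes of Decr1 and Cpt1a lie near 0.

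Set against the WT arrays of its own slide, KO replicate 2 was above all WT levels in 30 of the 40 genes, within them in 8 and below them in 2, and it was above in 44.1% of all genes. Among the 25 genes that rose it lay above all WT levels in 25, a direction that their choice largely fixes, by 0.25 to 1.98. Its difference from WT was smaller than that of slide 2 in 21 of the 25, and in 69.3% of all genes called higher. The other 4 were Acadvl, Decr2 (1.98 against 1.49), Pex11a (0.74 against 0.49) and Eci2 (0.93 against 0.68). With the slide as a block 11 of the 40 genes were called higher and 1 lower, against 5.08% and 4.67% of all genes, and the median difference was 0.44. The array medians of the 40 genes relative to WT were 0.63, 0.44 and 0.62 for KO replicates 1, 2 and 3, and those of all genes lay between 0.06 and 0.09.

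**Figure D4:**
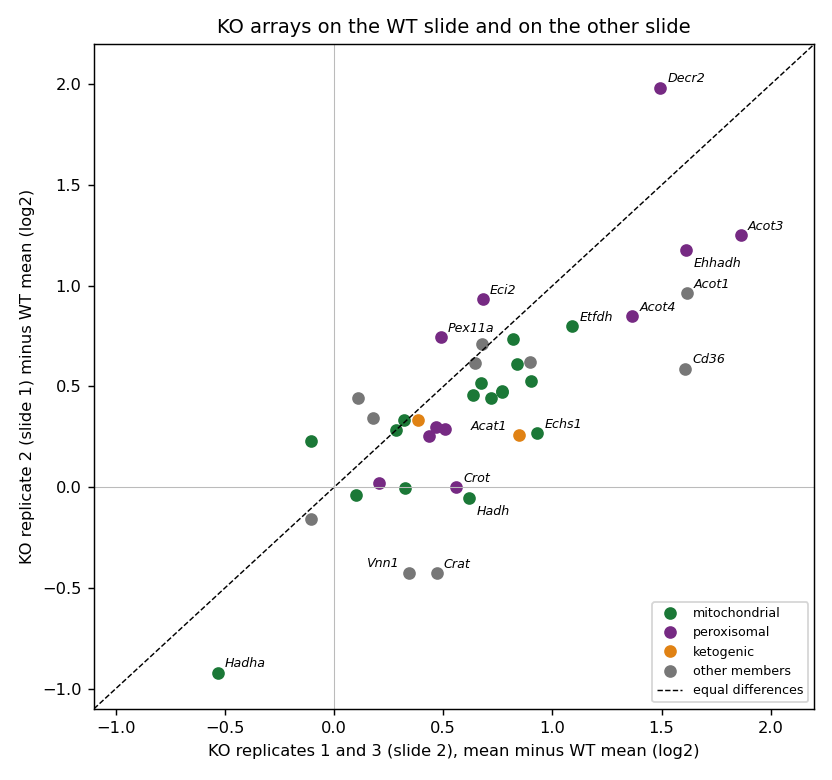
For each measured gene, the level on KO replicate 2 minus the WT mean (y axis, slide 1) against the mean of KO replicates 1 and 3 minus the WT mean (x axis, slide 2), both log2, coloured by step, with the dashed line where both are equal. Most points lie above 0 on both axes and below the dashed line, and Decr2, Eci2 and Pex11a are among those above the line. Crat and Vnn1 lie below 0 on slide 1 and above 0 on slide 2. So do Hadh, Cpt2, Acads and Crot, but closer to 0 on slide 1 (from -0.06 for Hadh to -0.0004 for Crot).

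Signal strength moved with the differences. Of the 40 genes 21 were in the brightest decile of all genes tested, whose median difference was 0.29, and 9 in the next decile, whose median was 0.24. Of all genes in these deciles 36.4% and 28.2% were called higher, more than the 17.4% of all genes tested. The medians of the 40 genes within these deciles were 0.62 and 0.76. Normalisations that align all intensities took this trend away: the median of the brightest decile was 0.03 after quantile normalisation and 0.01 after cyclic loess normalisation. The median of the 40 genes was then 0.39 and 0.33, with 16 and 14 genes called higher against 14% and 10.7% of all genes. Median centring moved the median of all genes from 0.06 to 0.18 and that of the 40 genes to 0.72. Of the 40 genes 38 had a positive difference in the main fit, as had 12449 of all 22809 genes tested. After quantile or cyclic loess normalisation 34 of the 40 had one, and 32 with the slide as a block. All 25 genes that rose kept their direction in the 18 alternative settings, which their choice on the same arrays largely fixes. In the 12 settings that leave out no array, Slc27a2, Cpt1a, Decr1, Etfa, Etfdh, Ehhadh, Decr2, Acot12, Acot3 and Acot4 kept their calls as well.

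The wider pathway was described from lists that hold none of these genes. Of all genes tested 17.4% rose and 12.2% fell, with a median of 0.06, and 36.4% rose in the brightest decile. Of 31 further peroxisomal genes 11 rose (35.5%) and 1 fell, with a median of 0.32. Abcd2, a transporter of very long chain acyl-CoA, was above background on 3 KO arrays and no WT array, and so passed the filter through KO alone. Its fold was at least 3.14, a bound that sets the KO mean against the lowest signal well above background on each WT array. It is counted among the genes that rose, but no p is given because its WT levels were not above background. Acox3, an acyl-CoA oxidase, rose by 0.57, Pex2, of the import machinery, by 0.65 and Pex11g, of peroxisome division, by 0.53. Of 27 further mitochondrial genes 8 rose (29.6%), with a median of 0.28. Among them Acad8, a dehydrogenase of valine breakdown, rose by 1.02 and Mmut, methylmalonyl-CoA mutase, by 0.78. Acad12 rose by 0.72 and Acsm3, a medium-chain acyl-CoA synthetase, by 0.46. Of 20 measured partners and known targets of PPARa 8 rose (40%) and 1 fell, with a median of 0.27. These lists were not tested as sets.

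Cyp4a14, a fatty acid omega-hydroxylase, read 1.90, 2.61 and 2.36 in WT and 6.40, 6.04 and 6.28 in KO, a difference of 3.95 (SE 0.21, limma adjusted p = 0.00219). Ppargc1a, a coactivator of PPARa, rose by 1.54 (SE 0.15, adjusted p = 0.00623) and Plin5, a lipid droplet protein of oxidative tissue, by 1.34 (SE 0.16, adjusted p = 0.00713). Ppard, which encodes the related receptor PPARd, fell by 0.62 (SE 0.09, adjusted p = 0.0107). In each of these 4 genes the groups did not overlap, and each was also called when blocked on the slide (adjusted p between 0.0213 and 0.0493).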

How the data were processed

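Liver RNA of 6 mouse samples was measured on one-colour Agilent arrays. The deposited values are intensity per spot, background-subtracted and detrended by Agilent Feature Extraction 11.0.1.1 with no normalisation between arrays, per the file headers. The deposited files also hold other values, flags of 0 or 1 that mark saturated spots, outliers and signals well above background. After removal of outliers (178 to 236 an array; none was saturated), the 43020 spots were averaged into 39429 probes.

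Levels are the log2 intensity minus the array's 75th percentile. Probes flagged well above background on no fewer than 3 arrays were kept (27021), each gene took its brightest probe, and probes were named through RefSeq transcripts (GRCm38.p6, 27234 probes matched). The groups were compared in R 4.3.3 by lmFit and eBayes of limma 3.58.1 (with data.table, version 1.17.8, and jsonlite 2.0.0), with Benjamini-Hochberg adjustment over all 22809 genes at 0.05. The step medians have no test. The number of arrays limits the precision. The same code was tested on simulated data.

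The text names every gene of the list, and from each list of other pathway genes the up to 4 with the smallest p. Not every gene so chosen is reported here. The genes and lists were chosen with earlier results of these data known. Replicate numbers did not pair the samples. Alternatives were the normalisation, the filter, the choice of probe, limma's settings, a block for the replicate number or the slide, the mean of WT replicates 1 and 2, and each array left out.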

Additional observations from a re-analysis of the deposited data

How the results depend on the processing

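Over 18 alternative settings the 25 genes called higher kept their direction, which their choice on the same arrays largely fixes. Ehhadh and Acot3 kept their calls throughout. Single-gene calls, Hadha's included, were lost 137 times, more often where an array was left out than otherwise. Main values were 25 genes called higher, 1 lower, and medians of 0.60 for all 40 genes, 0.62 for mitochondrial, 0.57 for peroxisomal and 0.51 for ketogenic genes. Quantile normalisation gave 16 higher, 0 lower and medians of 0.39, 0.38, 0.43 and 0.32. Normexp with quantile normalisation gave medians of 0.40, 0.41, 0.40 and 0.32. Cyclic loess normalisation gave 14 higher, 2 lower (Hadha and Fabp1) and medians of 0.33, 0.33, 0.30 and 0.23. Median centring gave 0 lower and medians of 0.72, 0.74 and 0.69 for all, mitochondrial and peroxisomal genes. The mean of a gene's probes gave medians of 0.43 for all and 0.42 for mitochondrial genes. The slide as a block gave 11 higher and medians of 0.44, 0.44, 0.74 and 0.30. Leaving out each array in turn gave 2 to 26 higher and 0 to 1 lower. At 0 lower, Hadha still had an unadjusted p under 0.05 with limma, which its choice on the same arrays largely fixes. The causes were not tested, except that a left-out array means fewer samples.

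All genes that turned direction were uncalled. Acsl1 was -0.077 with quantile, -0.041 with normexp and -0.033 with cyclic loess normalisation, and -0.060 with the mean of its probes. Cpt2 was -0.21, -0.24, -0.23 and -0.17 in the same settings and -0.037 when blocked on the slide. Acaa1b was -0.14 with quantile, -0.063 with normexp and -0.14 with cyclic loess normalisation. Etfb was -0.0050 with quantile normalisation. Vnn1 was -0.019 with cyclic loess normalisation. Blocking on the slide gave -0.42 for Vnn1, -0.43 for Crat, -0.0004 for Crot, -0.0018 for Acads and -0.055 for Hadh. Leaving out 1 array gave -0.12 to 0.21 for Cpt1b and -0.16 to 0.34 for Vnn1.

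Replicate numbers did not pair the samples: deviations of same-numbered samples correlated at 0.11, 0.11 and 0.02. With the replicate number as a block 17 genes were called higher, 16 of them among the 25. Array weights were not run, because limma's estimate did not converge. With 3 arrays a group and 1 KO array on the WT slide, effects of slide and genotype can be told apart only through KO replicate 2. The signal of Acot2 was too low to compare.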
